A study of Rattus norvegicus with 31 samples.

Results

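The 10 genes described here are the contractile genes of vascular smooth muscle: Acta2, Myh11, Tagln, Cnn1, Myocd, Smtn, Lmod1, Mylk, Tpm2 and Myl9. They were taken by gene name from a table of 32883 gene entries, and all 10 had an entry with at least 1 count in every library. The deposited annotation, whose build is not given in the sources used here, places Acta2 (ENSRNOG00000058039) on chromosome 1, Myl9 on 3, Tpm2 on 5, Tagln and Cnn1 on 8, Myh11 (ENSRNOG00000057880) and Myocd (ENSRNOG00000003669) on 10, Mylk (ENSRNOG00000002215) on 11, Lmod1 (ENSRNOG00000051548) on 13 and Smtn on 14. Bulk RNA sequencing had been run on fat from male Sprague-Dawley rats, aged 10 to 15 weeks with a labelled time point of 15 weeks, in which the mid-thoracic aorta was narrowed by a ligature (coarctation). In sham-operated rats the ligature was placed and left loose, and a systolic gradient of about 20 mmHg across the coarctation was recorded at 4 weeks after surgery. Perivascular adipose tissue (PVAT) is the fat that sheathes the aorta, here its thoracic stretch, and was taken on either side of the ligature. Brown adipose tissue (BAT) was sampled too. Coarctation gave 6 libraries above (coarct above), 6 below (coarct below) and 5 of BAT (coarct BAT). Sham surgery gave 5 libraries above (sham above), 5 below (sham below) and 4 of BAT (sham BAT). All 31 libraries came from rats of the same strain, sex and chow diet. Libraries are named by group and by the number in their sample title. The BAT depot, whether tissue was pooled, and whether a shared number means a shared rat are not stated in the labels.

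Smooth muscle contracts when calcium activates calmodulin and, through it, myosin light chain kinase (Mylk), which phosphorylates the regulatory light chain (Myl9) of the smooth muscle myosin (heavy chain, Myh11). The myosin then pulls on thin filaments of smooth muscle alpha-actin (Acta2) that carry tropomyosin (Tpm2) and the actin-binding proteins calponin 1 (Cnn1), transgelin (Tagln) and smoothelin (Smtn), while leiomodin 1 (Lmod1) nucleates actin filaments. Myocardin (Myocd) is the coactivator that, with serum response factor (SRF), switches these genes on through a DNA element called the CArG box. In fat, these proteins belong to the walls of small arteries and veins, and pericytes and activated fibroblasts can make some of them, Acta2 above all.

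Because the CArG box is the shared switch of this gene set, the promoters were read for it. RefSeq promoters (assembly GRCr8, 250 bases before to 50 bases after the gene start) were given for 5 of the 10 genes, Acta2, Cnn1, Smtn, Mylk and Tpm2. A CArG box was searched on both strands as its name defines it, and also with 1 letter of its A/T-rich centre off. The exact box stood in 548 of 33469 promoters (1.64%), and the box with at most 1 letter off in 3154 (9.42%). Of the 5, only the Acta2 promoter held such letters, at positions -134 and -84 from the gene start, each with 1 letter off. The pair is printed in capitals below, beside the promoter of Cnn1, which varied with Acta2 across libraries, and that of Mylk, which did not. The windows are chr1:241172454-241172753 for Acta2 (minus strand), chr8:28908187-28908486 for Cnn1 (plus strand) and chr11:79498525-79498824 for Mylk (minus strand), all 5′ to 3′ on the gene's strand.
Acta2: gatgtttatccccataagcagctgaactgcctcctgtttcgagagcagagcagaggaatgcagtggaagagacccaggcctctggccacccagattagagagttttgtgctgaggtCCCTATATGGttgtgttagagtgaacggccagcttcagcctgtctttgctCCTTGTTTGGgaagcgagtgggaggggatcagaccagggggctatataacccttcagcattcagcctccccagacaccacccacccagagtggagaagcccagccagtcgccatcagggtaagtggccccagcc
Cnn1: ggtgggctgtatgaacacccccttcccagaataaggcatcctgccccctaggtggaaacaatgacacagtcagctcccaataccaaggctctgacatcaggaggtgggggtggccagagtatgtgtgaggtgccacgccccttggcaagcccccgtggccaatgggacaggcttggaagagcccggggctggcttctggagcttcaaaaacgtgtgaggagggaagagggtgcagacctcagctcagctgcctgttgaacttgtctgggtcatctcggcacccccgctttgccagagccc
Mylk: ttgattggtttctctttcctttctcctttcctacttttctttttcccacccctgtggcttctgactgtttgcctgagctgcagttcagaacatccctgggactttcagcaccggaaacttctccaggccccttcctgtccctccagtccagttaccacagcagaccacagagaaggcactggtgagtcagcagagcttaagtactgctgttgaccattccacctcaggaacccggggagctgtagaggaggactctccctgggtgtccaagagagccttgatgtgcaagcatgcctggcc
A match of letters is a description of the sequence, and no match says only that these letters are not in this window. Of the 57 other smooth muscle pathway genes with a promoter in the same table, 5 (8.77%) held a box with at most 1 letter off.

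Library totals ran from 15713160 to 26530733 counts. Brown adipocyte transcripts were abundant in every library: Ucp1, the uncoupling protein of heat production, measured 830 to 2504 CPM (read counts scaled to the total of the library), and Cidea 950 to 2459 CPM. Of 9 brown adipocyte markers in the table, Cox7a1 stayed at or below 1.34 CPM and Elovl3 had no count in 26 libraries. Some libraries also held transcripts of other muscle. Summed cardiac muscle markers had medians of 690 CPM in coarct above and 951 CPM in sham above against 1.85 to 3.91 CPM in the other 4 groups, and summed skeletal muscle markers exceeded 400 CPM in 9 libraries.

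All genes of the contractile set were measured in all 3 tissues, and their levels were compared with each other in FPKM, a unit that corrects CPM for the length of each gene. Mylk was highest, with a median of 54.4 FPKM over the 31 libraries (26.8 to 75.7), followed by Lmod1 with 39.8 (20.4 to 66.3), Tagln with 33.4 (18.0 to 79.3), Acta2 with 30.7 (15.1 to 83.8) and Myl9 with 29.03 (17.4 to 59.5). These ranges overlap, so that the order of the 5 is a description of medians. Tpm2 had a median of 20.9 FPKM with the widest range of the structural genes (7.39 to 345), Myh11 14.2 (5.57 to 24.7) and Smtn 8.75 (5.19 to 15.9). Cnn1, a marker of the differentiated contractile state, was low at 2.08 FPKM (0.240 to 6.58), and Myocd lowest at 0.153 FPKM (0.0133 to 0.871). Mylk made up a median of 20.5% of the summed FPKM of the 10 genes, and Myh11 5.87%. Mylk counts are per gene and do not separate the kinase from its other products. RefSeq places 4 other genes over Mylk and 1 each over Myocd and Lmod1, and since the strand setting is not given, reads of these cannot be told apart from theirs. In bulk RNA, fewer cells of a type and less RNA per cell cannot be told apart.

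**Figure D1:**
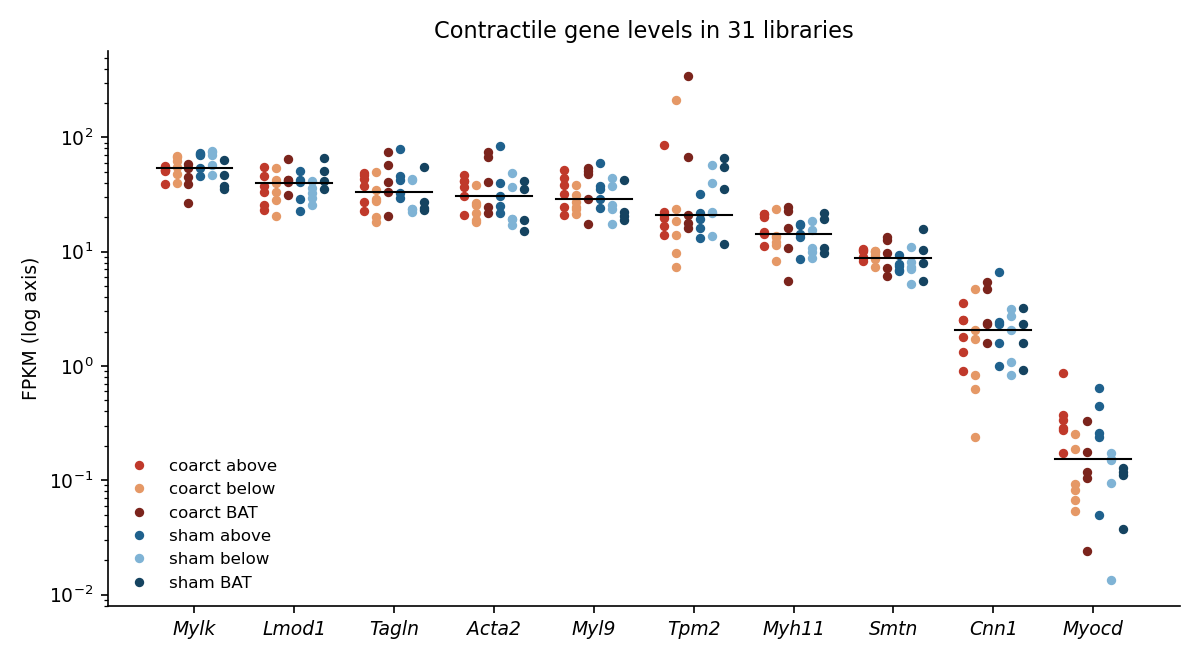
FPKM (log axis) of each contractile gene in each of the 31 libraries, coloured by group, with a black line at the median. Mylk sits highest (median 54.4 FPKM) and Myocd lowest (0.153 FPKM), while Tpm2 reaches 345 FPKM in its highest library.

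The question of the study was whether PVAT under raised pressure differs from PVAT without it, and for the contractile genes no such difference passed the test. In coarct above against sham above, edgeR's quasi-likelihood test with Benjamini-Hochberg adjustment over all 14556 genes called 0 genes (0% of those tested) at an adjusted p under 0.05, and therefore 0 of the 10. At an unadjusted p under 0.05 there were 523 genes, 1 of them a contractile gene. DESeq2 called 8 genes and limma 0, with no contractile gene in either. The median log2 difference of the 10 genes was 0.01, the same as that of all genes.

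The gene with the lowest p there was Smtn, which encodes a thin filament protein named for its restriction to contractile smooth muscle. Smtn measured 27.1 to 34.9 CPM in coarct above, with a median of 31.8 CPM, and 23.003, 24.9, 25.97, 22.4 and 31.1 CPM in sham above 20, 22, 24, 26 and 28. All 6 coarctation libraries lay over the sham median, but sham above 28 lay within their range. The log2 difference was 0.36 (SE 0.133, edgeR adjusted p = 0.999), so that it does not stand out from the other genes tested. Smtn in coarct below had a median of 31.9 CPM against 24.2 CPM in sham below, a log2 difference of 0.16 (edgeR adjusted p = 0.888).

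Mylk showed lower values in both coarctation PVAT groups, with overlap. Its levels in coarct above were 309 to 445 CPM (median 406), and in sham above 20, 22, 24, 26 and 28 they were 548, 558, 427, 358 and 571 CPM. In coarct below it measured 311 to 535 CPM (median 458), and in sham below 588, 552, 595, 371 and 449 CPM. The log2 differences were -0.23 above and -0.30 below (SE 0.162 for both), with edgeR adjusted p = 0.999 and 0.881. At both sites 0 of 6 coarctation libraries lay over the sham median. Sham above 24 and 26 and sham below 26 and 28 lay within the coarctation range of their site.

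In coarct below against sham below the count was again 0 of 14556 genes (0%), and the 746 genes with an unadjusted p under 0.05 held no contractile gene. DESeq2 called 1 gene and limma 0. Acta2 had a log2 difference of -0.27, Tagln of -0.15, Cnn1 of -0.28 and Myl9 of -0.19, and the median over the 10 genes was -0.11 against 0.01 over all genes. Myh11, the heavy chain of the thick filament, measured 53.5 to 152 CPM in coarct below (median 82.3) and 56.6, 69.4, 64.1, 99.3 and 121 CPM in sham below 20, 22, 24, 26 and 28. The Myh11 ranges overlap, with coarct below 30 alone above the highest sham library, and the log2 difference was 0.01.

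Whether the step from above to below differed with surgery was tested as an interaction, and the count was 0 of 14556 genes (0%). An unadjusted p under 0.05 was found for 352, and DESeq2 and limma called 0. The interaction was -0.09 to 0.33 on the log2 scale over the 10 genes.

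The comparison of sites within a surgery gave fitted values that were higher above than below for most contractile genes, again short of the test. In coarct above against coarct below, 8 of the 10 had a fitted log2 difference above 0, with a median log2 difference of 0.32 against 0.01 over all genes. The test called 15 of 14556 genes (0.103%) and 0 of the 10. In sham above against sham below, 7 of the 10 had a fitted difference above 0, the median was 0.13 against -0.02 over all genes, and 10 genes (0.0687%) were called, none of the 10. At an unadjusted p under 0.05 there was 1 contractile gene in each comparison, Myocd, among 791 genes in coarctation and 776 in sham, and neither DESeq2 nor limma called one.

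Myocd is the smooth muscle and heart coactivator, and it was the gene of the set that differed most between sites. In coarct above 19, 23, 25, 27, 29 and 30 it measured 3.62, 1.40, 1.53, 1.14, 1.19 and 0.712 CPM. In coarct below its lowest, median and highest values were 0.225, 0.363 and 1.06 CPM. All 6 libraries above exceeded the median below, and the groups overlapped. The log2 difference was 1.67 (SE 0.528, edgeR adjusted p = 0.211). Among shams, Myocd measured 0.207, 1.07, 0.983, 1.84 and 2.66 CPM above and 0.394, 0.718, 0.0551, 0.621 and 0.636 CPM below (numbers 20, 22, 24, 26 and 28). Sham above 20 was the low one, and the other 4 exceeded every sham below library. The difference was 1.35 (SE 0.582, edgeR adjusted p = 0.892). Without coarct above 19, which had the highest Myocd, the coarctation difference was 1.33.

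Heart muscle also makes Myocd, and cardiac transcripts moved with it. The summed CPM of 13 cardiac markers was 3104 in coarct above 19, 495 to 819 in numbers 23, 25, 27 and 29, and 3.48 in number 30, the library with the lowest Myocd of its group. In sham above it was 41.7 in number 20, which had 0.207 CPM of Myocd, and 795 to 1983 in the others. Below the ligature the sums were 0.656 to 675 CPM in coarctation and 0.959 to 114 CPM in sham. The highest of coarct below, number 25, had the highest Myocd of that group, but also 3108 CPM of summed skeletal muscle markers. Its cardiac actin Actc1, a marker in the cardiac sum, was at 0.884 CPM, against 78.2 to 536 CPM in coarct above 19, 23, 25, 27 and 29. Whether the cardiac sum of this library came from heart muscle was not tested, and the library is part of the correlation and fits that follow. Over the 31 libraries, deviations from the group means of Myocd and of the cardiac sum had a Pearson r of 0.72 (Spearman rho 0.69), on points that share a library and its depth. No cardiac marker was at 0 in every library of a PVAT group, and in BAT Nppa and Sln in coarct BAT and Sln in sham BAT were. The median count was 0 for 5 of the 13 markers in coarct below, 8 in sham below, 7 in coarct BAT and 4 in sham BAT, and for 0 in either group above. The cardiac sum itself differed between the sites, with medians of 690 above and 3.91 CPM below in coarctation and 951 and 2.51 CPM in sham. A fit with that sum as a term therefore cannot fully separate it from the site. In that fit the Myocd difference between sites was 0.54 in coarctation and 0.05 in sham. With the slope of a library on gene length as the term, also chosen after the data were seen, it was 1.996 in coarctation and passed the test (edgeR adjusted p = 0.0297, against 0.0297 to 1 over 34 alternatives), and 1.22 in sham (adjusted p = 0.831).

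**Figure D2:**
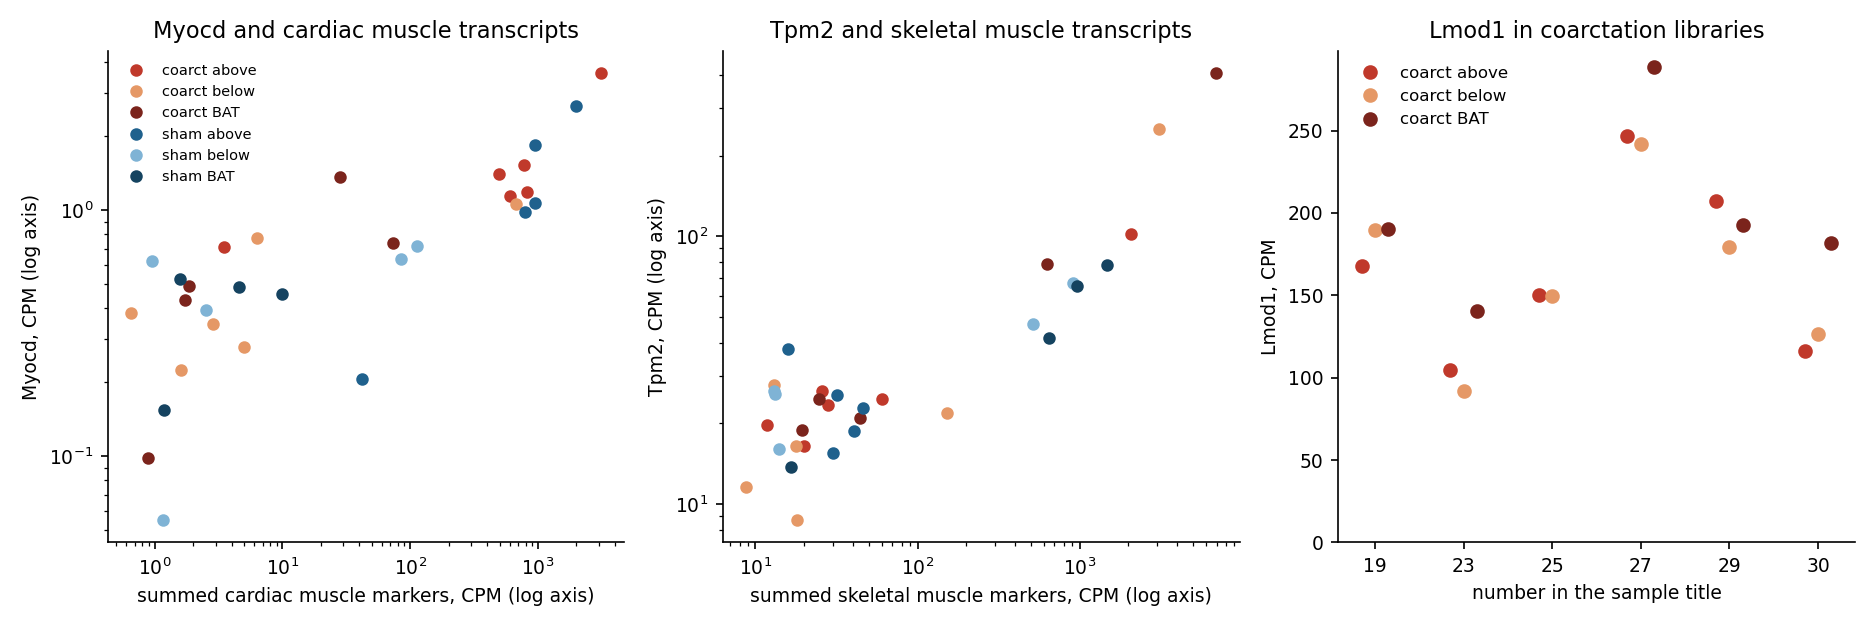
Left and middle, Myocd against summed cardiac muscle markers and Tpm2 against summed skeletal muscle markers, both in CPM on log axes, 1 point per library in the colour of its group. Right, Lmod1 in CPM for each number in the titles of the coarctation libraries, where the points of coarct above and coarct below lie close together within a number (r of 0.95 over 6 numbers).

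Acta2, the actin of smooth muscle thin filaments, had a median of 54.9 CPM in coarct above (29.4 to 65.3) and of 32.8 CPM in coarct below (25.3 to 53.3). In sham above 20, 22, 24, 26 and 28 it measured 117, 34.6, 30.6, 55.6 and 42.7 CPM, and in sham below 26.96, 26.7, 67.6, 50.7 and 23.7 CPM. Above and below overlapped under both surgeries. Within a number, Acta2 was higher above than below in sham 20, 22, 26 and 28, and lower in sham 24. In coarctation it was higher above in numbers 19, 23, 25 and 27. It was slightly lower above in number 29 (29.4 against 30.2 CPM) and number 30 (51.6 against 53.3 CPM). The log2 differences were 0.59 (SE 0.303) in coarctation and 0.40 (SE 0.332) in sham, with edgeR adjusted p = 1 and 0.983.

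**Figure D3:**
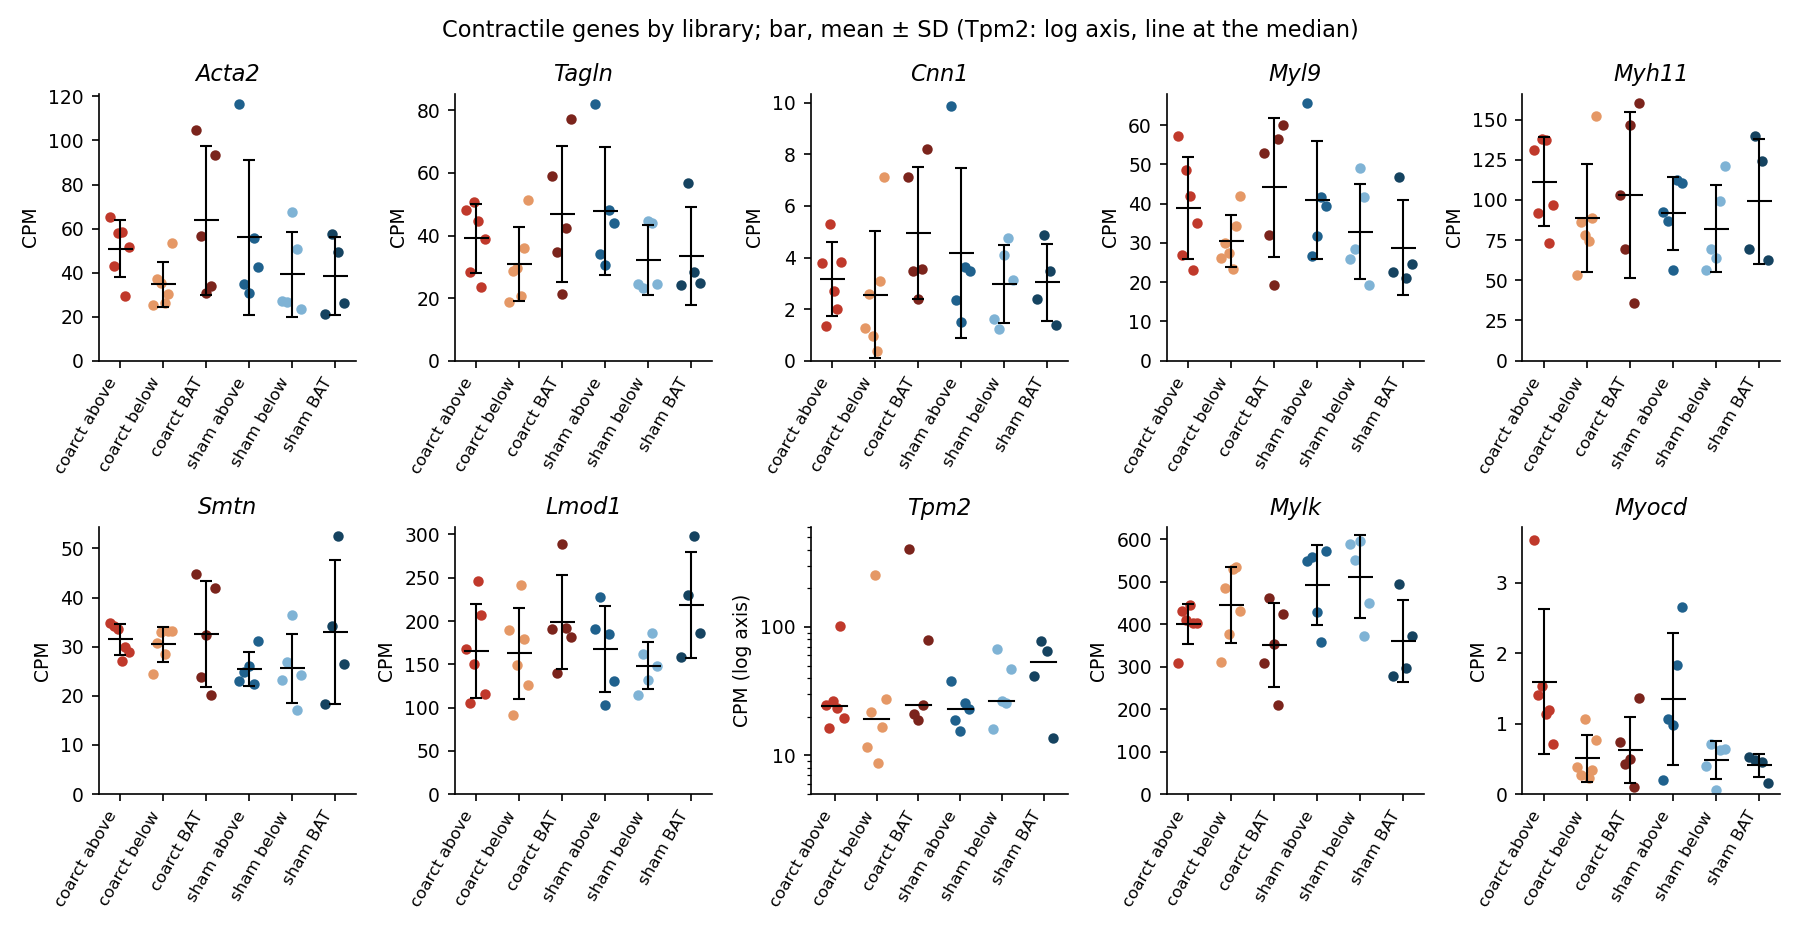
CPM of each contractile gene by group, 1 point per library, with the mean and SD of the group (for Tpm2, a log axis and a line at the median). Groups overlap in every panel apart from Myocd in coarct above against sham BAT, and sham above 20 is the highest point of Acta2, Tagln, Cnn1 and Myl9. That pair is 1 of 150 gene and group pairs compared. It differs in both surgery and tissue, was not tested, and the share over all genes was not counted.

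In BAT, none of the 9 contractile genes that were tested passed the test between coarctation and sham surgery. No gene of 13644 was called (0%), 928 had an unadjusted p under 0.05, and DESeq2 and limma called 0. The unadjusted p was under 0.05 for 3 contractile genes, Acta2, Cnn1 and Myl9, and Myocd was too low to be tested. The median fitted log2 difference over the 9 genes was 0.68 against 0.04 over all genes. The fitted value was above 0 for each of the 9, but mean CPM was lower after coarctation for Lmod1, Mylk and Smtn, and median CPM for Tpm2 (24.6 against 53.5). Over 20 alternatives the sign turned in 10 for Lmod1, in 5 each for Mylk and Smtn, and in 2 each for Tpm2 and Myh11. It turned in none for Acta2, Cnn1, Myl9 and Tagln, which are 1036 to 1500 bases long, a length that Tpm2 shares. Of these alternatives, 9 only leave out 1 library. The slope of a library on gene length had medians of -0.0735 in coarct BAT and 0.0426 in sham BAT, with overlap. Its part was not tested beyond the fit with that term. Acta2 measured 105, 56.8, 30.6, 33.9 and 93.4 CPM in coarct BAT 19, 23, 27, 29 and 30, and 21.0, 57.7, 49.2 and 26.4 CPM in sham BAT 20, 22, 24 and 26. Numbers 19 and 30 stood above every sham library and the other 3 lay within the sham range. The log2 difference of Acta2 was 0.88 (SE 0.368, edgeR adjusted p = 0.652).

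Myl9, the light chain that the kinase phosphorylates, measured 52.8, 32.0, 19.2, 56.6 and 60.001 CPM in coarct BAT and 22.7, 46.8, 21.0 and 24.6 CPM in sham BAT, which differed by 0.85 in log2 terms (SE 0.352, edgeR adjusted p = 0.652). Cnn1, which binds actin and restrains the myosin motor, measured 7.11, 3.47, 2.40, 3.55 and 8.20 CPM in coarct BAT and 2.40, 4.86, 3.48 and 1.39 CPM in sham BAT, a difference of 0.87 (SE 0.396, edgeR adjusted p = 0.652). Both genes overlapped between the groups, with 4 of 5 coarctation libraries over the sham median. The heavy chain gene Myh11 had a mean of 103 CPM in coarct BAT and 99.2 CPM in sham BAT, and the kinase gene Mylk of 351 and 360 CPM, with fitted differences of 0.17 and 0.09 that had no stable sign.

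PVAT and BAT were compared within each surgery, and 1 contractile gene passed the test. In coarct below against coarct BAT, Acta2 averaged 34.6 ± 10.3 CPM (SD, n = 6) against 63.8 ± 33.9 CPM (n = 5) in BAT, and its log2 value fell by 1.06 (SE 0.273, edgeR adjusted p = 0.0364). All 6 libraries below lay under the BAT median of 56.8 CPM, and the ranges overlapped, since coarct BAT 27 and 29 were as low as the PVAT libraries. This was 1 of 99 tests of a contractile gene in 10 comparisons. In this comparison 4.2% of 14276 genes were called in either direction and 1.49% of the 14276 as lower in coarct below. Summed levels of 10 fibroblast markers, none of them at 0 in every library of a group, were 2155 to 4459 CPM (median 3143) in coarct below and 3326 to 7732 CPM (median 5587) in coarct BAT. Acta2 varied with that sum across libraries (r of 0.68), and its part in the Acta2 difference was not tested. With 10 genes, 1 call is the smallest count above 0, and nothing particular to the set is read from it. Of the other members, 8 had the lower value in coarct below, among them Tagln with -0.80 (edgeR adjusted p = 0.117), Myl9 with -0.77 (0.117) and Cnn1 with -1.12 (0.222), and the median over the 10 genes was -0.64 against 0.00 over all genes. Mylk had the higher value, 0.17.

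**Figure D4:**
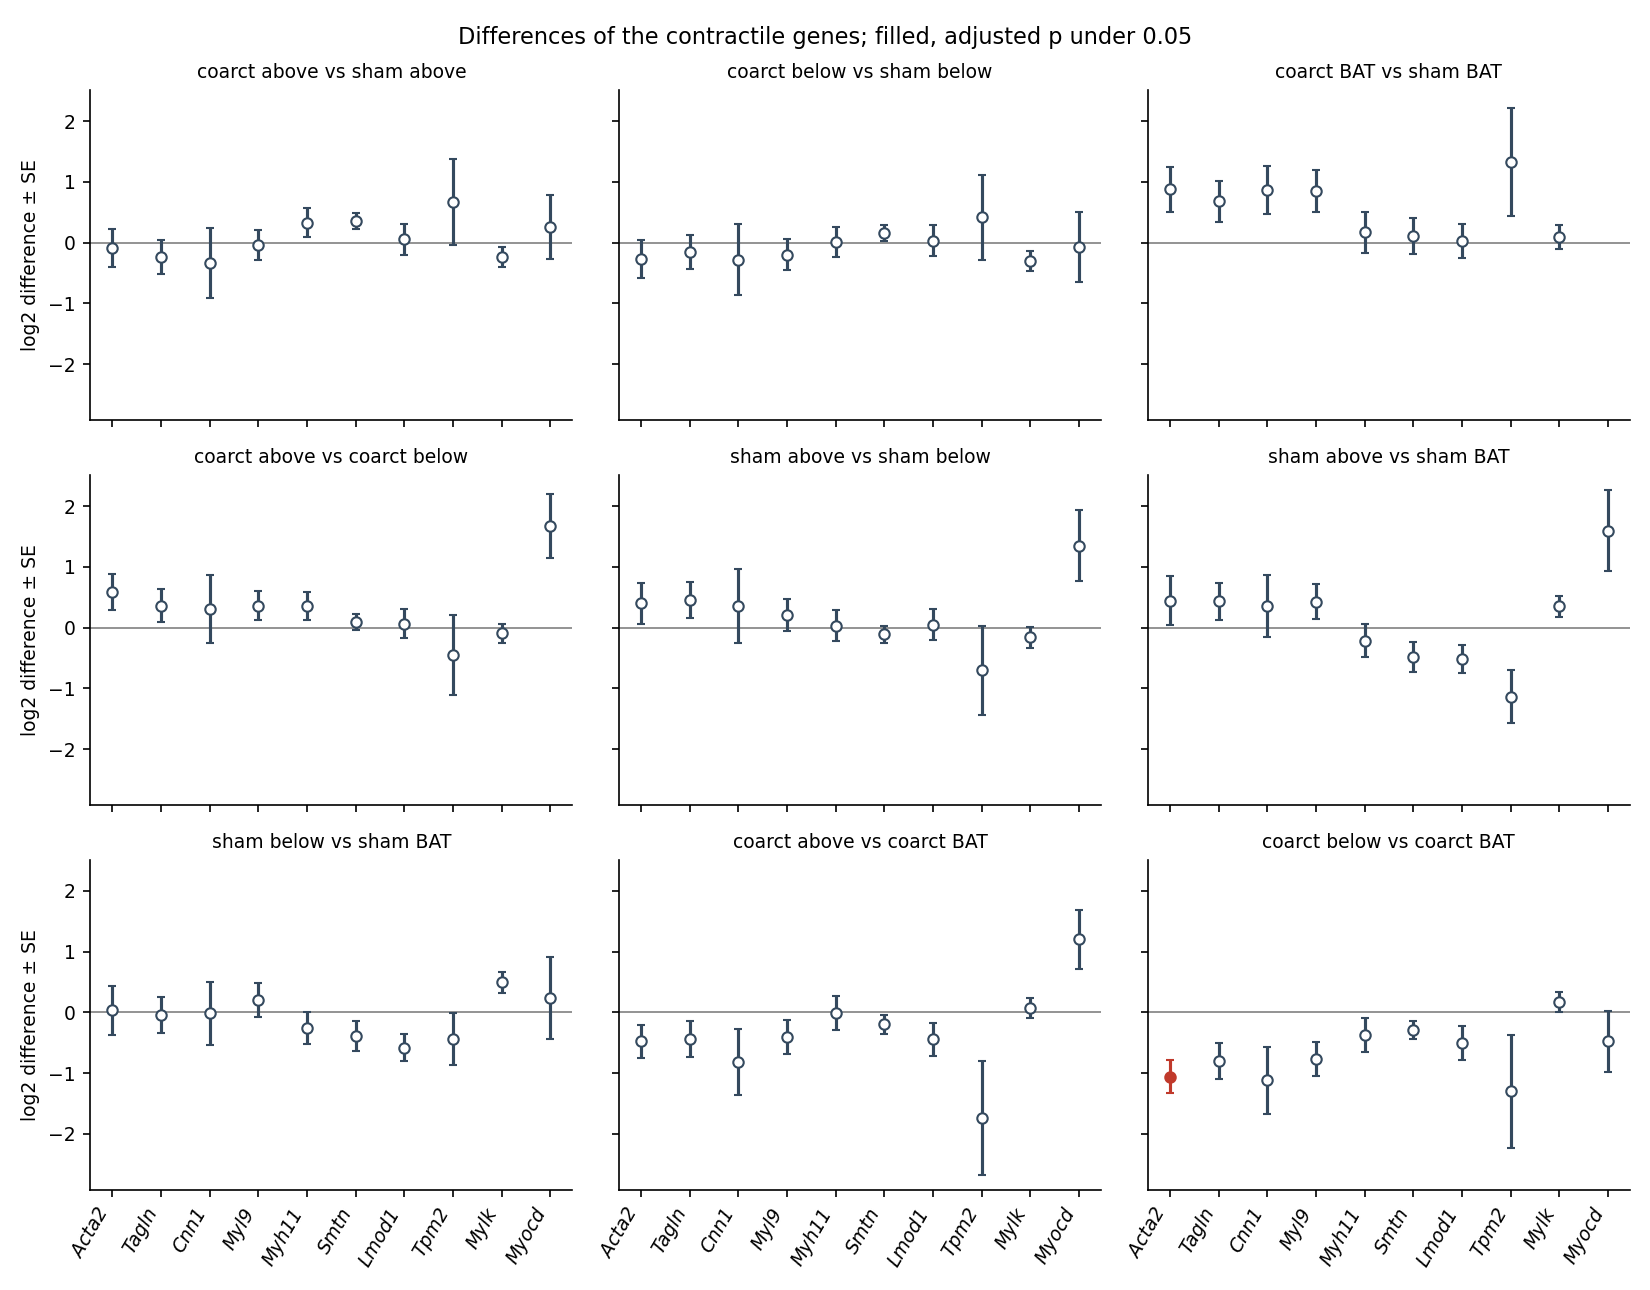
Log2 difference with its SE for each contractile gene in 9 comparisons, where positive values are higher in the first-named group. The filled point, Acta2 in coarct below against coarct BAT at -1.06, is the only one with an adjusted p under 0.05.

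The Acta2 call was lost without any 1 of 7 of the 11 libraries compared, while the log2 difference stayed between -1.24 and -0.78. These were coarct BAT 19 (-0.78, adjusted p = 0.0940), coarct BAT 30 (-0.95, adjusted p = 0.0678) and coarct below 19, 23, 25, 27 and 29 (-1.09 to -1.01, adjusted p = 0.0628 to 0.0766). Coarct BAT 19 also carried 6953 CPM of skeletal muscle markers, and without the 9 libraries over 400 CPM the Acta2 difference was -0.45 (edgeR adjusted p = 0.342). That setting dropped coarct BAT 19 and 30, which had the highest Acta2 of their group (105 and 93.4 CPM). It kept coarct BAT 23, 27 and 29, so the part of skeletal muscle transcripts cannot be told from the loss of these libraries. Over 29 alternatives the adjusted p of Acta2 ran from 0.00452 to 0.633. Acta2 encodes a protein nearly identical to those of the skeletal actin gene Acta1 and the enteric actin gene Actg2. How any reads shared by these genes were counted is not given in the sources used here. Coarct BAT 19 had 1728 CPM of Acta1 and 105 CPM of Acta2, the highest Acta2 of its group. Coarct below 25 had 1034 CPM of Acta1 and 35.5 CPM of Acta2, inside the range of the other libraries of its group. The part of any shared reads in the Acta2 difference was not tested. Without coarct BAT 27, a library with low Acta2, Tagln (-0.99, adjusted p = 0.0214) and Myl9 (-0.96, adjusted p = 0.0167) passed as well, against 0.0214 to 0.884 for Tagln and 0.0167 to 0.934 for Myl9 over all alternatives.

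In coarct above against coarct BAT, 183 of 14276 genes were called (1.28%) and none of the 10, with Myocd at 1.20 (edgeR adjusted p = 0.240) as the 1 at an unadjusted p under 0.05, against 2382 of all genes. With the cardiac sum as a term, Myocd was at 0.10 there, between groups whose median sums were 690 and 1.85 CPM. In sham above against sham BAT, 92 of 14190 genes were called (0.648%), and in sham below against sham BAT 115 (0.81%), with no contractile gene in either. DESeq2 and limma called none of the 10 in these 3 comparisons. At an unadjusted p under 0.05 there were 3 contractile genes in sham above against BAT (Lmod1, Tpm2 and Myocd), among 1152 of the 14190 genes, and 2 in sham below against BAT (Lmod1 and Mylk), among 1488. Myocd in sham above against BAT was at 1.60 (edgeR adjusted p = 0.518), and turned to -0.76 with the cardiac sum as a term. The sum had medians of 951 CPM in sham above and 3.07 CPM in sham BAT, so these fits cannot fully separate it from the tissue.

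Lmod1, the leiomodin that starts actin filaments in smooth muscle, measured 158, 230, 298 and 187 CPM in sham BAT 20, 22, 24 and 26. It measured 115, 161, 132, 186 and 148 CPM in sham below, all 5 under the BAT median of 209 CPM, with overlap, and the difference was -0.58 (SE 0.226, edgeR adjusted p = 0.343). Mylk went the other way, with 279, 493.5, 297 and 372 CPM in sham BAT and all 5 sham below libraries over the BAT median of 334 CPM. Its difference was 0.50 (SE 0.171, edgeR adjusted p = 0.272). The kinase and the filament nucleator therefore had opposite signs in the same comparison, neither past the test. The 2 comparisons of sham PVAT with BAT share the 4 BAT libraries.

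Tpm2, the beta tropomyosin, is also a gene of skeletal muscle, and its values moved with skeletal muscle transcripts. It measured 406 CPM in coarct BAT 19, 252 CPM in coarct below 25 and 102 CPM in coarct above 29, against 18.97 to 78.9, 8.71 to 27.7 and 16.5 to 26.5 CPM in the other libraries of those groups. The summed CPM of 11 skeletal muscle markers in the same 3 libraries was 6953, 3108 and 2067. After coarctation these sums ranged from 11.8 to 2067 CPM above, from 8.80 to 3108 CPM below and from 19.3 to 6953 CPM in BAT. After sham surgery they were 15.97 to 45.9 CPM above, 12.95 to 910 CPM below and 16.7 to 1468 CPM in BAT. No marker was at 0 in every library of a group. Over the 31 libraries the deviations of Tpm2 and of this sum had an r of 0.90 (rho 0.85). Sham above against sham BAT gave Tpm2 a log2 difference of -1.14 (edgeR adjusted p = 0.454), which turned to 0.63 without the libraries rich in skeletal muscle transcripts. Of sham BAT that fit kept only number 26, which had the lowest Tpm2 of its group (13.7 CPM).

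Across libraries the 10 genes did not vary as 1 block. Deviations of log2(CPM + 1) from the group means were correlated for all 45 pairs over 31 libraries, which share depth and the set of libraries. In 6 pairs r was at least 0.7, and these were the 6 pairs among Acta2, Tagln, Cnn1 and Myl9, with r of 0.72 to 0.92, against a median of 0.25 over the 45 pairs. Tagln, an actin cross-linker, had the closest ties, with Myl9 (r = 0.92, rho = 0.90), Acta2 (0.88, 0.87) and Cnn1 (0.87, 0.88). Sham above 20 was the highest library for all 4 genes, with 117 CPM of Acta2, 82.2 of Tagln, 9.87 of Cnn1 and 65.6 of Myl9. Myh11 was linked to them less closely, at r of 0.49 with Acta2, 0.46 with Tagln, 0.56 with Cnn1 and 0.18 with Myl9. Mylk and Lmod1 had r of -0.08 to 0.20 with these 4 genes, and Myocd had 0.05 to 0.12.

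**Figure D5:**
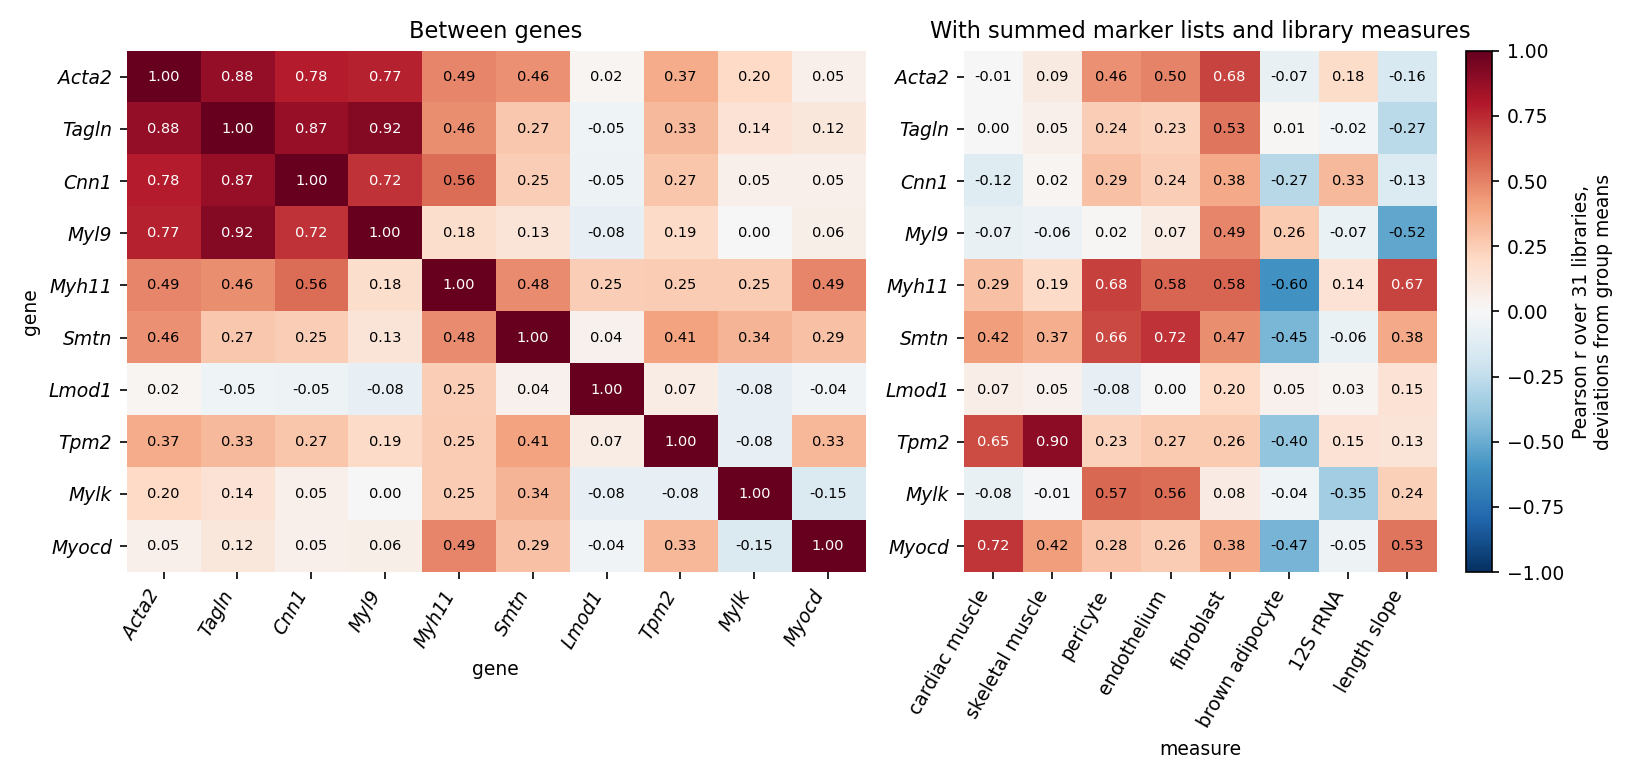
Pearson r between deviations from group means over 31 libraries, for each pair of contractile genes (left) and for each gene with summed marker lists, 12S rRNA and the slope of the library on gene length (right). Acta2, Tagln, Cnn1 and Myl9 form a block with r of 0.72 to 0.92, Tpm2 pairs with skeletal muscle (0.90) and Myocd with cardiac muscle (0.72).

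Other measures of the libraries moved with these genes. Myh11, whose annotated length is 6475 bases, had r of 0.67 (rho 0.65) with the slope of a library on gene length. Myl9, at 1104 bases, had r of -0.52 (rho -0.31). Myocd, at 4151 bases, had r of 0.53 (rho 0.62), and Smtn, at 3307 bases, 0.38 (rho 0.47). The remaining genes had weaker r. Mylk, the longest at 7858 bases, had r of 0.24, Tpm2 at 1179 bases 0.13, and Tagln, the shortest at 1036 bases, -0.27. Acta2 had r of 0.68 with summed fibroblast markers, against 0.46 with pericyte and 0.50 with endothelial markers. Smtn had r of 0.72 with endothelial markers and 0.66 with pericyte markers, and Myh11 0.68 with pericyte markers. The part of length and of other cells in the differences above was not tested beyond the fits with those terms.

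Lmod1 levels went with the number in the titles across the PVAT libraries of coarcted rats. In coarct above 19, 23, 25, 27, 29 and 30 it measured 168, 105, 150, 246, 207 and 116 CPM, and in coarct below with the same numbers 190, 91.6, 150, 242, 179 and 126 CPM. The ratio of above to below within a number was 0.886 to 1.16, while the numbers differed up to 2.35-fold above and 2.64-fold below. In log2(CPM + 1), r over the 6 numbers was 0.95 and rho 0.94, and r was 0.88 without the 2 numbers farthest from the median. The median r of 13937 genes with a mean count of at least 10 was 0.45, and 3.05% of them had an r as high as that of Lmod1. Mylk had r of 0.83, which fell to 0.14 without the 2 farthest numbers, and the other 8 contractile genes had r of -0.54 to -0.09. Without the 2 farthest numbers of each gene, these 8 had r from -0.89 (Acta2) to 0.78 (Myocd), so that r also moves widely under this check. Coarct BAT 19, 23, 27, 29 and 30 measured 190, 140, 289, 192 and 182 CPM, with number 27 again highest and 23 lowest. In the shams the values of a number lay farther apart. Lmod1 was 191, 227, 103, 185 and 131 CPM above and 115, 161, 132, 186 and 148 CPM below, and the ratio within a number ran from 0.778 to 1.66. The pattern was noticed after the values were seen.

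Of 62 other genes of the smooth muscle pathway 60 were in the table, and 4 of them were called in at least 1 comparison. Pln, which encodes phospholamban, the brake on the calcium pump of heart and smooth muscle, was higher above than below in coarctation (log2 3.73) and sham (3.85), and higher above than in BAT (2.80 in coarctation and 3.64 in sham). Pln measured 2.18 to 50.1 CPM in coarct above and 0.820 to 1.83 CPM in coarct below, which did not overlap. Casq2, a calcium store protein, was higher in sham above than in sham BAT, by 2.86 (edgeR adjusted p = 0.0146). Both are also heart genes. Over the 31 libraries, deviations from the group means had an r of 0.60 (rho 0.46) between Pln and the cardiac sum and of 0.86 (rho 0.84) between Casq2 and that sum, whose part in these differences was not tested. Dapk3, a kinase that promotes contraction by acting on the myosin phosphatase, fell by 0.52 in coarct above against coarct BAT (SE 0.121, edgeR adjusted p = 0.0410) and by 0.62 in coarct below (SE 0.122, edgeR adjusted p = 0.00871), with 34.9 ± 3.13 CPM (SD, n = 6) below and 45.8 ± 5.25 CPM (n = 5) in BAT. The comparisons share the BAT libraries. Ppp1r14a, the phosphatase inhibitor CPI-17, fell by 0.85 in coarct below against coarct BAT (SE 0.218, edgeR adjusted p = 0.0354), with 6.82 ± 1.06 CPM against 10.5 ± 3.58 CPM. In that comparison 2 of 59 tested pathway genes were called, both lower, and the median over the 59 was -0.04. Of all genes, 4.2% were called in either direction and 1.49% as lower. In the other comparisons 2 were called in sham above against BAT (0.648% of all genes), 2 in coarct above against BAT (1.28%), 1 in each comparison of sites (0.103% in coarctation and 0.0687% in sham), and none in the rest. Nothing particular to the pathway is read from these counts.

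The genes whose deviations were most like the mean profile of the 10 contractile genes were taken from 10642 genes with a symbol and a mean of at least 2 CPM. The closest was Actg2, the actin of enteric smooth muscle, with r of 0.86 (rho 0.84) over 31 libraries. Emilin1, an elastic fibre protein, followed with 0.83, then Slc12a9 with 0.83 and Vim, the intermediate filament of mesenchymal cells, with 0.83. Grip2, Atxn7l2, Smoc2, P3h1, Nucb1 and Lbh had r of 0.80 to 0.82. Among the contractile genes themselves, r with this mean profile was 0.86 for Acta2, 0.85 for Tagln, 0.77 for Cnn1 and 0.75 for Myh11, down to 0.28 for Mylk and 0.19 for Lmod1, each of which is part of the mean.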

How the data were processed

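Whole-number read counts per Ensembl gene in 31 libraries were deposited by the authors without normalisation. The deposited FPKM values were recomputed as count over gene length over library total and differed by at most 6.85e-15 in relative terms. STAR 2.5, HTSeq 0.6.1 and DESeq2 1.24.0 are named in the submitters' processing notes. The build, the annotation and the strand setting were not given in the sources used here. Of 32883 entries, 8811 had no count, and 25 names that had turned into dates were taken from the FPKM table.

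The test was the quasi-likelihood F test of edgeR 4.0.16 under R 4.3.3, after TMM scaling and filterByExpr, with Benjamini-Hochberg adjustment over all genes tested and calls under 0.05, in fits of 22 PVAT, 9 BAT, 14 sham or 17 coarctation libraries. The SE is the absolute log2 difference over the square root of F. Nothing in the labels says that libraries are separate rats, so each p-value measures only spread between libraries. The test script was checked on simulated data. Alternatives used DESeq2 1.42.0, limma 3.58.1, other library sets, added terms and a block for the number in the titles. The r between deviations of same-number libraries was over 0.1 for every pair only in sham below and sham BAT (4 of 4, 0.198 to 0.400). Between the coarctation sites it was over 0.1 in 5 of 6 pairs (0.0982 to 0.433), so that a shared source is not excluded there. The main fits held no block for the number. The 10 genes and all lists were chosen with earlier results of these data known. All 10 genes are named; of the pathway list the called genes with the largest differences, up to 4 a comparison, and of the likeness ranking the first 10.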

Additional observations from a re-analysis of the deposited data

Results flagged for a closer look

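In 60 sets of 1 gene in 1 group, 9 had a library far from the rest of its group (gap to the nearest library over the range, Dixon's 95% limit), where chance flags about 1 in 20 groups, or 3 of 60. Tpm2 was high in 3: coarct above 29 at 102 CPM (others 16.5 to 26.5), coarct below 25 at 252 CPM (8.71 to 27.7) and coarct BAT 19 at 406 CPM (18.97 to 78.9). Coarct above 19 was high for Myocd at 3.62 CPM (others 0.712 to 1.53) and low for Mylk at 309 CPM (402 to 445). Sham BAT 22 was high for Tagln at 56.7 CPM (24.2 to 28.4) and for Myl9 at 46.8 CPM (21.0 to 24.6). Cnn1 was high in sham above 20 at 9.87 CPM (1.5002 to 3.62), and Myh11 in coarct below 30 at 152 CPM (53.5 to 88.8).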

How the results depend on the processing

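Counts of called genes, over all genes tested, moved with the setting. The DESeq2 Wald test called 8 in coarct above against sham above, 1 in coarct below against sham below, 222 in coarct above against below, 44 in sham above against below, 232 in sham above and 327 in sham below against BAT, and 507 in coarct above and 1389 in coarct below against BAT. A fit of all 31 libraries called 183 between the coarctation sites and 16 between the sham sites. limma on log2(FPKM + 1) called 4 between the coarctation sites, 34 in sham below and 60 in coarct above against BAT. In the 17 libraries with mitochondrial rRNA reads, 0 genes were called between the coarctation sites, 0 between the sham sites, 1 in sham above, 0 in sham below, 10 in coarct above and 19 in coarct below against BAT. The 14 with few such reads gave 9 between the coarctation sites, 48 in sham above, 16 in coarct above and 0 in coarct below against BAT. These 14 held only number 20 of sham below, so its count is left out, and only 22 and 26 of sham BAT and 29 and 30 of coarct BAT. The 17 held only numbers 20 and 26 of sham above and 20 and 24 of sham BAT. The part of the reads cannot be told from that of the smaller groups. Among settings chosen after seeing the data, leaving out 9 libraries with over 400 CPM of skeletal muscle markers gave 93 and 0 between the sites (coarctation, sham). Against coarct BAT it gave 74 in coarct above and 81 in coarct below. Of sham BAT it kept only number 26, so no count against sham BAT is given. The cardiac sum as a term gave 494 between the coarctation sites, 160 in sham above, 187 in sham below and 121 in coarct above against BAT. The slope on gene length as a term gave 157 and 21 between the sites, 104 in coarct above and 155 in coarct below against BAT. The cause was not tested.

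With the number in the titles as a replicate block, 42 genes were called between the coarctation sites, 56 between the sham sites, 283 in coarct above and 958 in coarct below against BAT, and 2 contractile genes in the last, Acta2 (-0.98) and Lmod1 (-0.47, adjusted p = 0.0243). The correlation of same-number pairs was over 0.1 in 5 of 6 pairs of the coarctation sites and 3 of 5 of the sham sites. It changed no other call of a contractile gene.

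Of the 99 differences of contractile genes, the 1 call, Acta2 in coarct below against coarct BAT, gave 0 called genes of the set in the fit of all 31 libraries, with limma, on either rRNA side, without the skeletal-rich libraries and with the length slope, at log2 differences of -1.31 to -0.45. It held with DESeq2, its size factors, no filter, and the rRNA side or the cardiac sum as a term. Leaving out 1 library gave 0 to 3 called contractile genes there. The length slope gave 1 call between the coarctation sites, Myocd at 1.996 (adjusted p = 0.0297). Reversed were Tpm2 in sham above against BAT, at 0.63 without the skeletal-rich libraries, and Myocd in the same comparison, at -0.76 with the cardiac sum. The Tpm2 fit kept only number 26 of sham BAT, and the cardiac sum in the Myocd fit itself differed between the groups. Of 84 differences that had an unadjusted p of 0.05 or more, 62 took the opposite sign under at least 1 alternative.

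Leaving out 1 library gave 0 to 1 genes called in BAT (1 without sham BAT 22), 0 to 169 in coarct below against sham below (169 without sham below 28), 12 to 257 between the coarctation sites (257 without sham below 28, 185 and 180 without coarct below 19 and 27) and 8 to 23 between the sham sites (23 without sham above 20, 19 without coarct above 19 or 30). Against BAT it gave 59 to 110 in sham above (59 without sham BAT 20) and 47 to 157 in sham below (47 to 65 without sham below 20 or 22 or any sham BAT library). It gave 89 to 913 in coarct above (913 without coarct BAT 27, 89 to 113 without coarct BAT 19 or 29 or coarct above 23, 25 or 27) and 284 to 2621 in coarct below (2621 without coarct BAT 27, 307 and 284 without coarct below 23 and 25). Depth limits Myocd most, with as little as 1 count in a library.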
